A study of Mus musculus with 106 samples.

Results

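The AP-1 family is a set of basic leucine zipper transcription factors, and 10 of its genes were read in every list of H3K27ac and H3K4me3 peaks of the series: Fos, Fosb, Fosl1, Fosl2, Jun, Junb, Jund, Atf3, Batf and Batf3. They were chosen by name, 10 of 21938 protein-coding genes. Each was read at its promoter (1 kb to either side of any annotated start site) and over the gene body with 20 kb flanks. These windows held 121 of 89247 marked regions, 66 of them for H3K27ac and 55 for H3K4me3.

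H3K27ac marks active promoters and enhancers and H3K4me3 marks active promoters. Both had been mapped by ChIP-seq in cells of C57BL/6J mice, which were 12 to 14 weeks old when assigned to the control or diabetic group. Diabetes was induced with 42 to 45 mg/kg streptozotocin a day, given for 5 days. Tissue was taken 6 weeks after the last dose from diabetic mice with glucose above 13.9 mmol/L. Streptozotocin destroys insulin-producing beta cells, so hyperglycaemia here followed a toxin. The cells labelled HSC (hematopoietic stem cells) were bone marrow depleted of cells bearing CD3, CD4, B220, Ter119 or Gr1, which is a mixture of stem and progenitor cells. Bone marrow-derived macrophages (BMDM) of both mouse groups were grown for 7 days in 5 mmol/L glucose with L929-conditioned medium, then kept unstimulated or stimulated for 16 h with LPS at 100 ng/mL together with IFN-γ at 10 ng/mL. The 70 libraries formed 12 groups, 6 for each mark: control and diabetic cells of each of the 3 states. Each group held 6 libraries except the unstimulated diabetic BMDM, with 5 for each mark and no replicate 3.

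AP-1 proteins bind DNA as pairs. Fos proteins pair with Jun proteins and do not pair with themselves, whereas Jun proteins can do both, and the pairs bind the TRE motif or the related CRE motif. Several of the genes are immediate early genes, whose transcription starts within minutes of a stimulus through kinases and factors already in the cell, such as serum response factor at a CArG box. In macrophages AP-1 works beside the lineage factor PU.1, and NF-κB and interferon regulatory factors join it after LPS and IFN-γ.

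The sequences below are shown because the H3K27ac results turn on these promoters and regions. Coordinates are on GRCm38.p6 (mm10) and counted from 1, and promoter sequence follows the strand of the gene. Capitals mark letters matched by a motif search on both strands, with positions counted from the RefSeq start site and negative before it. The Fos promoter, chr12:85473540-85473839 on the + strand, lies in no annotated gene. It held a CArG box at -309, the CRE core at -66 and the PU.1 letters at -60.
Fos promoter: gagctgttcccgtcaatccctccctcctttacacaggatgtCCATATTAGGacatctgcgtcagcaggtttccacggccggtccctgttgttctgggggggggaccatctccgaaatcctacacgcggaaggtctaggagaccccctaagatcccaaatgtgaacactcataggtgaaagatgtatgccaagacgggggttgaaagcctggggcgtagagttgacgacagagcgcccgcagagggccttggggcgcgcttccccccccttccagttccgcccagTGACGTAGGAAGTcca
The Fosb promoter, chr7:19310096-19310395 on the - strand, also lies in no annotated gene and held the CRE core at -323 and a CArG box at -272.
Fosb promoter: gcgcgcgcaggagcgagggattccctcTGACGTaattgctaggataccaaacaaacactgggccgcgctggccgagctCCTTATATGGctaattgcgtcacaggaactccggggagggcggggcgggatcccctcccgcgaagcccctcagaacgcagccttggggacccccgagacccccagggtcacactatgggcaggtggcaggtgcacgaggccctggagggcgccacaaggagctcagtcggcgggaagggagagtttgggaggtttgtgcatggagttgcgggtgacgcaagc
The Atf3 promoter, chr1:191183284-191183583 on the - strand, ends in the first exon of an Atf3 transcript and held the CRE core at -8.
Atf3 promoter: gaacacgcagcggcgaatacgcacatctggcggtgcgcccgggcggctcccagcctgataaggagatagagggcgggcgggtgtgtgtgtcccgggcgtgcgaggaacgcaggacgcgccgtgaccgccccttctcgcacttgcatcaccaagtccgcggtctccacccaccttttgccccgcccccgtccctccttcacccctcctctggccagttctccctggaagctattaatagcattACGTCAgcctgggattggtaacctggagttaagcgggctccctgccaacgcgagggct
The Batf promoter, chr12:85686370-85686669 on the + strand, reaches the first base of the annotated gene and held the NF-κB letters at -275 and the CRE core at -98.
Batf promoter: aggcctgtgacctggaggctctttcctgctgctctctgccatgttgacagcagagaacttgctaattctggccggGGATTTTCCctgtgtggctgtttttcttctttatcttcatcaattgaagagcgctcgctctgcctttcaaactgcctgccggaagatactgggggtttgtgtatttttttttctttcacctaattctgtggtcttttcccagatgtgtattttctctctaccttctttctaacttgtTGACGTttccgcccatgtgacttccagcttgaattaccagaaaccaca
The next sequences are 300 bases around the highest summit of the regions whose H3K27ac rank rose with LPS+IFN-γ in diabetic BMDM, on the + strand of the genome. The first, chr1:191178846-191179145, lies in an intron of Atf3, and none of the searched letters was in it.
Atf3 intron: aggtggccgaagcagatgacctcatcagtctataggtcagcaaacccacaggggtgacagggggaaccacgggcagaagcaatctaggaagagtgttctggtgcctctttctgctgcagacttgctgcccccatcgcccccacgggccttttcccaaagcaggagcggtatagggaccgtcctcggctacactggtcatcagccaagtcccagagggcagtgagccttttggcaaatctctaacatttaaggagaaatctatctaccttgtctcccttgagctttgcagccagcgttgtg
The second, chr12:85454981-85455280, is intergenic upstream of Fos, and none of the searched letters was in it.
Fos upstream: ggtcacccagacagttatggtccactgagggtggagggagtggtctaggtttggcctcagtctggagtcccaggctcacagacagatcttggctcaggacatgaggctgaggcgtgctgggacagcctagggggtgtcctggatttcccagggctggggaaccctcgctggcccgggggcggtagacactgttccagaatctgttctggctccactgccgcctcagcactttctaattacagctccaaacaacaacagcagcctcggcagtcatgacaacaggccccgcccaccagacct
The last, chr12:85666095-85666394, is intergenic upstream of Batf and held the PU.1 letters at base 235 of the stretch shown.
Batf upstream: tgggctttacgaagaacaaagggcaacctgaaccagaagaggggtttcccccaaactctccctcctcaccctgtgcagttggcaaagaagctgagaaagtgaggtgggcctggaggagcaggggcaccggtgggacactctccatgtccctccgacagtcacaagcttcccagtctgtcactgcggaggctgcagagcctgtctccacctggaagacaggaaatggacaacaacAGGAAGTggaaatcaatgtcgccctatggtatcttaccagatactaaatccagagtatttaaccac
The motifs searched were TRE (TGANTCA), CRE (TGACGTCA), CRE core (TGACGT, also inside CRE), IRF (GAAANNGAA), NF-κB (GGANTTTCC), PU.1 (AGGAAGT) and the CArG box. Letters and windows were chosen after the sequences had been read, and a match is a description of the letters. Start sites came from the RefSeq promoter table, which had an entry for 9 of the 10 members (none for Fosl1). Among 27025 promoters in the window from 350 to 51 bases before the start site, 1.63% held a CArG box, 5.49% the CRE core, 1.30% the NF-κB letters and 7.80% the PU.1 letters. Of the 9 members there, Fos and Fosb held a CArG box, and Fos, Fosb, Jun and Batf the CRE core. Batf held the NF-κB letters there, and Fos and Fosl2 the PU.1 letters. In the table's own window, 250 bases before to 50 after the start site, 7.64% of all promoters and 3 of the 9 members (Fos, Atf3 and Batf) held the CRE core, and 8.57% of all and 2 of the 9 (Fosl2 and Jund) held the IRF letters. TRE was in 7.93% of all promoters and in 0 of the 9. Fosb held none of the searched letters in the table's own window and Atf3 none in the other. Each is shown in the window that held matches. Of the 66 H3K27ac regions in the windows, 6 (9.09%) held TRE within 300 bases around the summit against 5.34% of all 44611 regions, and 6 (9.09%) held the PU.1 letters against 6.32%.

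The lists held 13730 to 277213 peaks each, with a median of 110154, and no read totals, so the depth of a library is unknown. Signal was therefore compared as rank: within each library the best −log10 p of a promoter was ranked among the 21938 genes, where rank 1 is the strongest, and the rank was turned into a normal score that is 0 for a mid-ranked gene and positive for stronger ones. Libraries of the same mark correlated with r between 0.796 and 0.958 for H3K27ac and between 0.511 and 0.895 for H3K4me3. A bulk rank cannot tell apart more marked cells and more mark per cell. HSC libraries listed H3K27ac at the promoters of 10 to 12 of 12 stem and progenitor markers and 5 to 7 of 7 erythroid markers, while BMDM listed 6 to 12 and 2 to 5 of these. Of 12 macrophage markers, HSC libraries listed 4 to 10 and BMDM 5 to 11. Csf1r, the receptor for the macrophage growth factor, was listed in 23 of 23 BMDM libraries and 10 of 12 HSC libraries, Adgre1 in 15 and 3, and Msr1 in 2 and 0. Some other macrophage markers were listed less often in BMDM, with Itgam listed in 5 of 23 BMDM and 7 of 12 HSC libraries, Lyz2 in 7 and 5, and C5ar1 in 18 and 12. Of the 7 erythroid promoters, 4 fell from HSC to BMDM by limma (adjusted p under 0.05) in control and 4 in diabetic mice, and their part in the H3K27ac differences between BMDM and HSC below was not tested.

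In H3K27ac, 3 control BMDM libraries lay at the end of their groups nearest the other treatment and are given by their labels throughout. A stimulation score was taken over the regions called between stimulated and unstimulated diabetic BMDM. Stimulated diabetic libraries scored 0.19 to 1.36 and unstimulated ones −1.35 to −1.26, a separation fixed by that choice of regions. The library labelled control LPS+IFN-γ replicate 5 scored −1.02, against −0.03 to 0.82 in the other control LPS+IFN-γ libraries. The libraries labelled control unstimulated replicates 5 and 6 scored 0.09 and −0.16, against −1.11 to −0.26 in their group, so replicate 6 lay close to its nearest neighbour. Comparisons of control BMDM were also computed without these 3, here called the odd libraries. Since this score picked them, leaving them out moves control BMDM toward the diabetic stimulation differences by construction, and calls gained that way are not independent support.

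Across the 35 H3K27ac libraries the members fell into a strongly marked set and a weak one. Junb and Jund led with median ranks of 497 (range 10 to 3333.5) and 531.5 (55 to 3387). Junb was in the top 1000 promoters of 24 lists and Jund in those of 30. Next came Fosl2 with a median rank of 1418 (49 to 6351), Jun with 1779 (431 to 5420), Atf3 with 2025 (60 to 9815), Fosb with 2860 (41 to 9422) and Fos with 4115.5 (371 to 7635.5). Neighbours in this part of the order overlapped widely: Junb outranked Jund in 15 libraries, Jund outranked Fosl2 in 23, Fosl2 outranked Jun in 20, Jun outranked Atf3 in 21, Atf3 outranked Fosb in 21 and Fosb outranked Fos in 18. Batf3, Fosl1 and Batf were far lower, at median ranks of 8004.5 (3831 to 17201.5), 8921.5 (5384 to 10899.5) and 10678.5 (3596.5 to 17475), and none of the 3 entered the top 1000 of any list. Fos outranked Batf3 in 33 of 35 libraries, Batf3 outranked Fosl1 in 22 and Fosl1 outranked Batf in 31. The median H3K27ac peak over a promoter was 3197 bp wide for Junb and 695 bp for Batf.

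H3K4me3 ordered the members differently and with less spread between genes. Median ranks over 35 libraries were 3454 for Jund, 4076.5 for Fosl2, 4131 for Batf3, 4407.5 for Junb, 4888 for Jun, 5120 for Fosl1, 6452 for Fosb, 6682 for Atf3, 8712 for Fos and 12682 for Batf. Apart from Fos, which outranked Batf in 33 libraries, each neighbour led the next in only 17 to 24 of 35 libraries. Batf3, which drives the development of cross-presenting dendritic cells, was the third by H3K4me3 and the eighth by H3K27ac. All 10 promoters carried H3K4me3 in at least 33 lists.

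**Figure D1:**
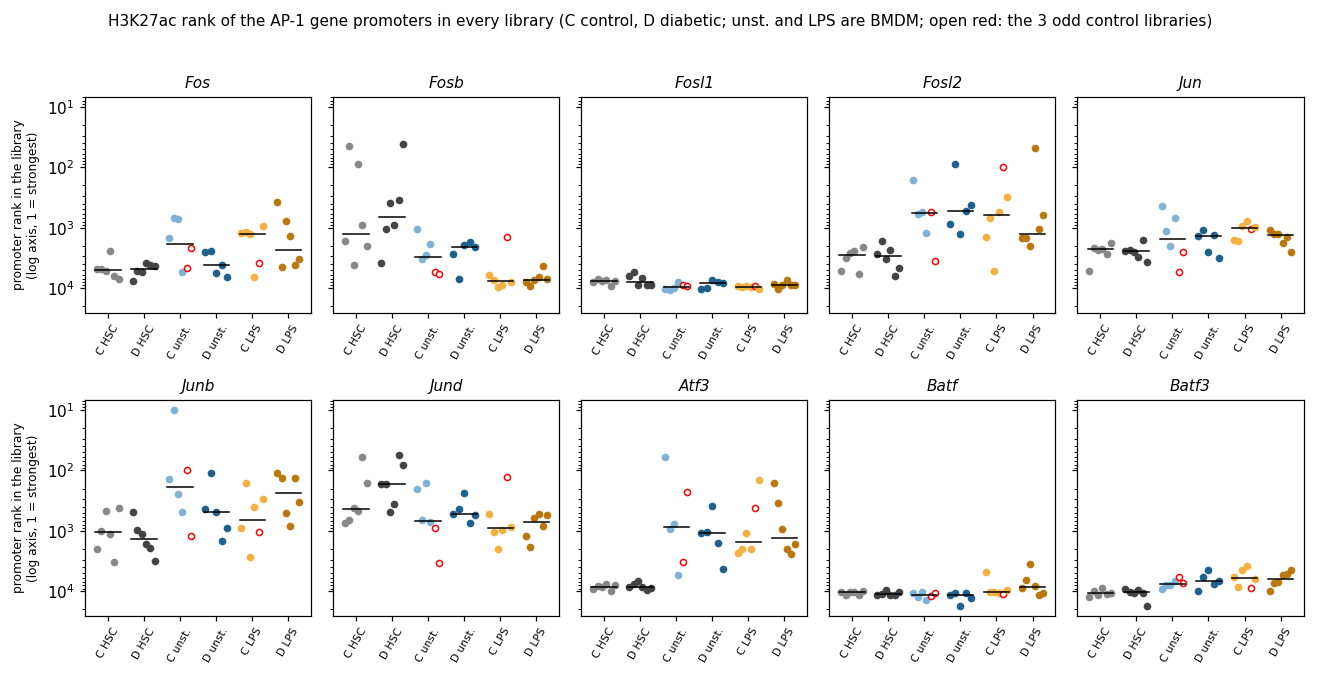
H3K27ac rank of each AP-1 promoter (log axis, 1 is the strongest of 21938) by library in the 6 groups, with black lines at group medians and open red points for the 3 odd libraries. Atf3 sits near rank 8400 in HSC and near 900 to 1500 in BMDM, Junb and Jund sit high everywhere, and Batf and Fosl1 low everywhere.

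The comparisons asked which promoters changed rank between cell states, with stimulation and with diabetes. A promoter was called at an adjusted p under 0.05 by limma over all tested promoters, 16981 for H3K27ac and 17255 for H3K4me3. For H3K27ac between unstimulated BMDM and HSC, 3 of the 10 members were called in control mice (Atf3, Fosl2 and Junb, all higher in BMDM), where 14.7% of all promoters were called. In diabetic mice 3 were called as well (Atf3, Fosl2 and Batf3, all higher), beside 14.3% of all promoters. The median difference of the 10 members was 0.329 in control and 0.177 in diabetic mice, against −0.00893 and −0.000455 over all promoters, and 6 of 10 were above 0 in each. With LPS+IFN-γ, 1 of 10 (Batf, higher) was called in diabetic BMDM beside 2.37% of all promoters. Of the LPS and IFN-γ markers, Ptgs2 and Cxcl10 rose there by limma (adjusted p = 0.00412 and 0.0344). Several such markers were seldom listed. Of 23 BMDM libraries, stimulated or not, Nos2, Tnf and Ptgs2 were in 23, Cd40 in 22, Cd38 in 19, Il12b in 18 and Cxcl10 in 17. Il6 was in 6, Il1b and Acod1 in 5, Gbp5 in 4, Gbp2 in 3 and Cxcl9 in 0. In control BMDM 0 of 10 and 0% of all promoters were called by limma, with 0 members at an unadjusted p under 0.05 by limma and by the exact permutation test, and 906 and 681 promoters over all genes. Without the odd libraries 93 promoters were called there and still 0 members, with Fosb and Junb at an unadjusted p under 0.05.

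No H3K27ac promoter passed the threshold by disease. In each of the 3 comparisons of diabetic with control mice, 0 of 10 members and 0% of all promoters were called by limma, with 0 members at an unadjusted p under 0.05 by limma and by the exact permutation test. Over all genes those unadjusted counts were 383 for HSC, 976 without stimulation and 748 after it by limma, and 566, 701 and 595 by permutation. The test of whether the LPS+IFN-γ effect differed between diabetic and control mice called 0% of promoters (1076 at an unadjusted p under 0.05), and so did that for the BMDM minus HSC effect (498 at an unadjusted p under 0.05). Member promoters at an unadjusted p under 0.05 were 1 (Junb) and 0.

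**Figure D2:**
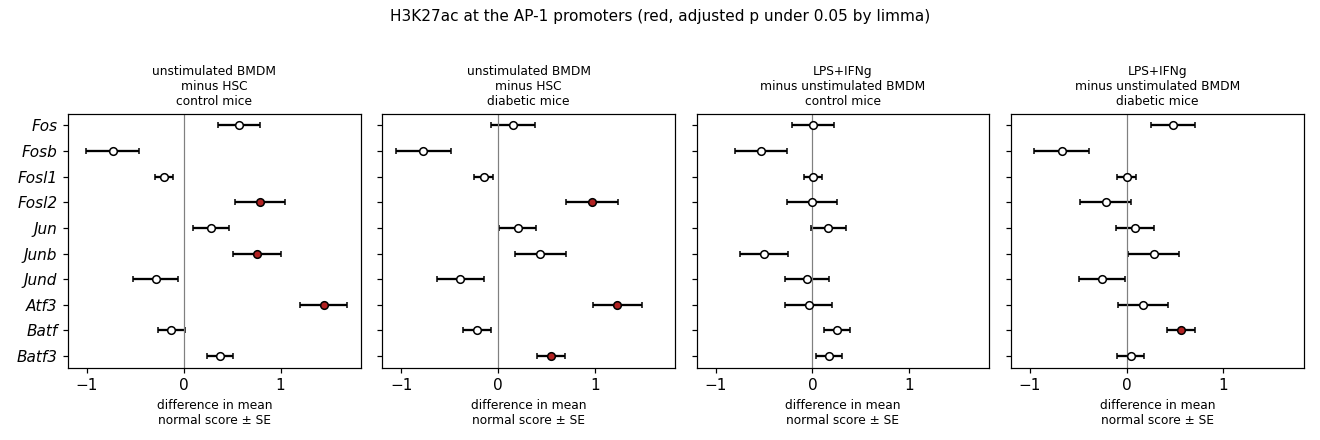
Differences in mean normal score of the AP-1 promoters, with standard errors, in the BMDM against HSC and stimulation comparisons of control and of diabetic mice, 1 panel each. Red points passed an adjusted p under 0.05. Atf3 rose by 1.45 and 1.23 from HSC to BMDM in control and diabetic mice, and Batf by 0.56 with LPS+IFN-γ in diabetic BMDM, and Fosb lies left of 0 in all 4 panels.

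Fos, the founding Fos gene and a textbook immediate early gene, had H3K27ac ranks of 2441 to 6973 (median 5016.5) in control HSC and 3832.5 to 7635.5 (median 4768) in diabetic HSC. Unstimulated control BMDM ranged from 690 to 5387 (median 1833) and the 5 diabetic libraries were at 2537, 2457, 5688, 4115.5 and 6509.5. After LPS+IFN-γ the ranges were 922 to 6462 (median 1255) in control and 371 to 4405.5 (median 2332.5) in diabetic BMDM. The groups overlapped in every comparison. The BMDM minus HSC difference was 0.57 in control mice (SE 0.217, adjusted p = 0.0652). It passed the threshold without the odd libraries (0.72, adjusted p = 0.0425) and without single control libraries unstimulated 4 (adjusted p = 0.0276), unstimulated 5 (0.0336) and HSC 4 (0.0411). In diabetic mice it was 0.15 (adjusted p = 0.711), and the difference between the mice was −0.42 (unadjusted p = 0.186). With LPS+IFN-γ the differences were 0.00 in control BMDM (adjusted p = 0.999) and 0.47 in diabetic BMDM (SE 0.228, adjusted p = 0.256).

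The region over the Fos promoter (chr12:85470660-85476786) rose from HSC to BMDM by 0.50 in control mice (SE 0.174, adjusted p = 0.0231), while a region upstream fell. The upstream region lies at chr12:85453343-85456444, centred at -18997 bp from a Fos start site, in no annotated gene. Of all 44611 H3K27ac regions, 100 being the strongest percentile, it sat at 82.6 ± 3.94 (SD, n = 6) in control HSC and 79.6 ± 2.95 (n = 6) in diabetic HSC, and was listed in all 12. Unstimulated control BMDM were at 59.7 ± 24.6 (n = 6, 5 listed). The 5 unstimulated diabetic libraries were at 11.4, 49.0, 20.7, 58.9 and 40.5, where 3 listed it. All diabetic values thus lay below every diabetic HSC library. The region fell from HSC to BMDM by 0.70 (SE 0.237, adjusted p = 0.0197) in control mice and by 1.24 (SE 0.248, adjusted p = 0.000184) in diabetic mice, a call that in control mice was lost without unstimulated library 4 (adjusted p = 0.124). With LPS+IFN-γ it rose by 1.16 in diabetic BMDM (SE 0.248, adjusted p = 0.00412), to 75.7 ± 10.2 (n = 6, all listed), a call not kept when peaks were ranked by fold (adjusted p = 0.112). In control BMDM the difference was 0.36 (adjusted p = 0.896) and 0.70 without the odd libraries (adjusted p = 0.180). The difference between the 2 stimulation effects was 0.80 (SE 0.343, unadjusted p = 0.0236, adjusted p = 0.644), or 0.46 without the odd libraries (unadjusted p = 0.190).

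Fosb, which makes a full-length FosB and a truncated ΔFosB, had the lowest BMDM minus HSC differences of the family. Control HSC ranged from 45 to 4095 (median 1276) and diabetic HSC from 41 to 3861 (median 654.75). Unstimulated control BMDM ranged from 1043 to 5827 (median 3089) and diabetic BMDM were at 2698.5, 6984.5, 1952, 1725 and 2078. The groups overlapped, and the promoter differences of −0.73 in control (SE 0.272, adjusted p = 0.0602) and −0.77 in diabetic mice (SE 0.285, adjusted p = 0.0605) lay just outside the threshold. The control difference passed it without single control libraries unstimulated 1 (adjusted p = 0.0344), HSC 3 (0.0169) and HSC 6 (0.0431), and the diabetic one passed in the fit without the odd libraries (0.0421). After LPS+IFN-γ Fosb ranked 1416 to 9422 (median 7606.5) in control and 4247 to 9096.5 (median 7252) in diabetic BMDM. In control BMDM 5 of 6 stimulated libraries ranked it below every unstimulated one, and the differences with stimulation were −0.53 in control (SE 0.272, adjusted p = 0.916) and −0.67 in diabetic BMDM (SE 0.285, adjusted p = 0.195). The control difference was −0.94 without the odd libraries (adjusted p = 0.152). The stimulated library with rank 1416 was control replicate 5, one of the odd libraries, and the other 5 were at 5989 to 9422.

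The regions of the Fosb window gave calls. Its promoter region (chr7:19306881-19311160) fell from HSC to BMDM by 0.64 in control (adjusted p = 0.0239) and by 0.68 in diabetic mice (adjusted p = 0.0257). A further region at chr7:19324099-19328336, centred at -16166 bp inside the long noncoding RNA gene D830036C21Rik, fell by 0.71 with LPS+IFN-γ in diabetic BMDM (SE 0.160, adjusted p = 0.00605), a call lost with regions taken from the top 40000 peaks of each list (−0.56, adjusted p = 0.0551). Its percentile was 85.7 ± 2.14 (n = 5) in unstimulated and 63.4 ± 11.3 (n = 6) in stimulated libraries. Control BMDM were at 79.7 ± 5.16 and 67.4 ± 12.5 (n = 6 each), a difference of −0.37 (adjusted p = 0.722) or −0.53 without the odd libraries (adjusted p = 0.109), and the effects differed by −0.35 between the mice (unadjusted p = 0.121, adjusted p = 0.790), or −0.19 without the odd libraries (unadjusted p = 0.419). The region also carried H3K4me3 in 34 of 35 lists.

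Fosl1 (Fra-1) and Fosl2 (Fra-2) are Fos relatives that lack the strong activation domain of Fos. The Fosl1 promoter stayed between ranks 5384 and 10899.5 in all 35 lists and was not called in any comparison, and its promoter region fell by 0.35 from HSC to BMDM in control mice (adjusted p = 0.0494). Fosl2 rose from HSC to BMDM. Its ranks were 2072 to 5748.5 (median 2865) in control HSC and 160 to 3503 (median 574.5) in unstimulated control BMDM, of which 5 of 6 lay above all HSC libraries. Diabetic HSC ranged from 1660 to 6351 (median 2994.5), and the 5 diabetic BMDM libraries at 858, 88, 1252, 522 and 428 all ranked above them. The differences were 0.79 (SE 0.255, adjusted p = 0.0293) and 0.97 (SE 0.268, adjusted p = 0.00987), and they differed by 0.19 between the mice (unadjusted p = 0.62).

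The Fosl2 calls depended on the ranking. With peaks ranked by fold the adjusted p was 0.718 in control and 0.304 in diabetic mice. The control call was also lost by the exact permutation test (adjusted p = 0.0746), without unstimulated libraries 1, 2, 3 and 5 (0.0812, 0.0524, 0.0532 and 0.0509) and without HSC libraries 1 and 5 (0.0697 and 0.0771). The promoter did not respond to LPS+IFN-γ past the threshold, at 0.00 in control and −0.22 in diabetic BMDM (adjusted p = 0.999 and 0.710). Just upstream, the region chr5:32132378-32134249, centred at -2488 bp over an exon of the transcript Gm10463, fell by 0.67 with LPS+IFN-γ in diabetic BMDM (SE 0.172, adjusted p = 0.0159). It went from 83.4 ± 6.92 (n = 5) to 62.4 ± 10.1 (n = 6). The call was lost without unstimulated diabetic library 2 (adjusted p = 0.0562), with peaks ranked by fold (0.144), with regions from the top 40000 peaks (0.0967) and with a replicate block (0.0567). In control BMDM it was −0.41 (adjusted p = 0.704) and passed without the odd libraries (−0.69, adjusted p = 0.0338). The 2 stimulation effects differed by −0.26 (adjusted p = 0.870), or 0.02 without the odd libraries (adjusted p = 0.996). This region was the sixth of 6 called ones and is named after its values were seen.

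Jun, the strongest activator of the Jun proteins, had no call. Its H3K27ac ranks were 1779 to 5171.5 (median 2283) in control HSC, 1616.5 to 3725 in diabetic HSC, 431 to 5420 in unstimulated control BMDM and 776 to 1679.5 after LPS+IFN-γ. The diabetic BMDM libraries were at 1356, 1111, 2534.5, 1319 and 3206.5 unstimulated and at 1098.5 to 2553.5 stimulated. No comparison passed the threshold, with differences of 0.28 and 0.20 from HSC to BMDM (adjusted p = 0.316 in control) and 0.17 and 0.09 with stimulation. Only 1 H3K27ac region lay in the Jun window, the fewest of any member.

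Junb, which often opposes Jun and is strongly used in activated macrophages, rose from HSC to BMDM in control mice. Ranks were 423 to 3333.5 (median 1066) in control HSC and 10 to 1229 (median 190.75) in unstimulated control BMDM, where 4 of 6 libraries lay above all HSC. The difference was 0.76 (SE 0.252, adjusted p = 0.0341). It was lost with peaks ranked by fold (adjusted p = 0.348), by permutation (0.136), in a fit of the 2 groups alone (0.0633) and with a replicate block in that fit (0.0775). Leaving out unstimulated libraries 1, 2 and 5 (0.0529, 0.128 and 0.0634) or HSC libraries 1, 4 and 5 (0.0792, 0.0512 and 0.105) also ended it. Diabetic HSC ranged from 488.5 to 3169 (median 1380.5) and unstimulated diabetic BMDM were at 442.5, 109, 486, 1482 and 913, a difference of 0.44 (adjusted p = 0.283), and the 2 effects differed by −0.32 (unadjusted p = 0.387). With LPS+IFN-γ the median rank went from 190.75 to 651 in control and from 486 to 234.5 in diabetic BMDM, with overlapping groups. These differences were −0.50 (adjusted p = 0.916; −0.60 without the odd libraries) and 0.28 (adjusted p = 0.613), and the difference between them was 0.78 (SE 0.365, unadjusted p = 0.0375, adjusted p = 0.774).

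Around Junb, regions upstream were called from HSC to BMDM. A region at chr8:84979380-84984015, centred at -2979 bp, reached within 1 kb of a Junb start site, so its peaks can also enter the promoter rank. It sat at percentile 99.8 ± 0.164 (n = 6) in unstimulated control and 99.4 ± 0.712 (n = 5) in diabetic BMDM. It rose from HSC by 0.93 (adjusted p = 0.000500) and 0.95 (adjusted p = 0.000881). A small region over an exon of Hook2 at chr8:84995611-84996308, centred at -17241 bp, was listed in 6 of 6 unstimulated control BMDM and 0 of 6 control HSC and rose by 1.22 (SE 0.284, adjusted p = 0.000820). In diabetic mice it was listed in 3 of 5 BMDM and 1 of 6 HSC libraries. The BMDM minus HSC effects on it differed by −0.83 between the mice (unadjusted p = 0.0474, adjusted p = 1.00).

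Jund, the Jun gene expressed in most resting cells, was among the best ranked promoters in every group, with medians of 443.25 in control HSC, 171 in diabetic HSC, 692 in unstimulated control BMDM, 528 in unstimulated diabetic BMDM, 914.5 in control LPS+IFN-γ BMDM and 725.5 in diabetic LPS+IFN-γ BMDM. It ranked higher in HSC than in BMDM by medians, but the differences of −0.29 and −0.39 did not pass (adjusted p = 0.428 and 0.298). The Jund promoter was not called in any comparison.

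Atf3, a stress-induced factor that restrains cytokine genes in LPS-treated macrophages, showed the largest difference of the 10 members. Its promoter ranked 7627 to 9815 (median 8449) in control HSC and 6800 to 9626 (median 8395) in diabetic HSC. In unstimulated BMDM it ranked 60 to 5330 (median 860.5) in control libraries and 1072.5, 1032.5, 392, 1600.5 and 4253 in diabetic ones. The HSC and BMDM groups did not overlap in either mouse group. The mean normal score went from 0.279 ± 0.101 to 1.72 ± 0.774 (SD, n = 6 each) in control mice, a difference of 1.45 (SE 0.244, adjusted p = 3.55e-05), and the adjusted p stayed between 4.63e-06 and 0.00025 with each library left out in turn. In diabetic mice it went from 0.317 ± 0.118 (n = 6) to 1.55 ± 0.450 (n = 5), a difference of 1.23 (SE 0.256, adjusted p = 0.000664). The effects differed by −0.21 between the mice (unadjusted p = 0.55). LPS+IFN-γ left the ranks in the same span, 144.5 to 2297.5 (median 1543) in control and 163 to 2414.5 (median 1311.5) in diabetic BMDM, with differences of −0.04 and 0.17 (adjusted p = 0.999 and 0.781).

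The Atf3 window held 13 H3K27ac regions, the most of any member, and was also the longest window (87744 bp, others 41668 to 62419 bp). The region over the promoter (chr1:191181045-191187805) sat at percentile 80.9 ± 3.19 in control HSC and 96.3 ± 4.34 in unstimulated control BMDM (n = 6 each), and it rose by 1.20 (adjusted p = 1.12e-05) in control and 1.01 (adjusted p = 0.000380) in diabetic mice. A region past the gene's end, chr1:191166982-191167622, was listed in 1 of 12 HSC and 11 of 11 unstimulated BMDM libraries, with rises of 1.14 (adjusted p = 0.00164) and 1.10 (adjusted p = 0.00442).

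One region inside Atf3 rose with stimulation in diabetic BMDM. It lies in an intron at chr1:191178261-191180022, centred at 3967 bp from a start site. The 6 stimulated diabetic libraries all listed it, at percentiles 82.2, 43.3, 89.1, 70.6, 70.0 and 38.4, and 0 of the 5 unstimulated diabetic libraries did, with percentiles of 11.4, 4.92, 20.7, 14.4 and 8.27 set by the share of regions that a list leaves out. The groups did not overlap, and the rise was 1.68 (SE 0.288, adjusted p = 0.000494), with adjusted p between 0.000229 and 0.00371 when each library was left out and 0.00588 with peaks ranked by fold. Unstimulated control BMDM already listed it in 6 of 6 libraries, at 51.5 ± 13.7, and stimulated control BMDM in 5 of 6, at 50.0 ± 25.0. The library that did not list it was the odd replicate 5. The control difference was −0.09 (adjusted p = 0.979), or 0.20 without the odd libraries (adjusted p = 0.861). HSC listed it in 0 of 12 libraries, so it rose from HSC to BMDM by 1.31 in control mice (SE 0.275, adjusted p = 0.000241), with −0.11 in diabetic mice (adjusted p = 0.818).

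Tested directly, the Atf3 intron did not pass between the mice. The stimulation effect was 1.78 larger in diabetic than in control BMDM (SE 0.399, unadjusted p = 4.03e-05, adjusted p = 0.200), and 1.48 larger without the odd libraries (unadjusted p = 0.000386, adjusted p = 0.755). Unstimulated diabetic libraries were lower than unstimulated control ones by a difference of −1.26 (unadjusted p = 5.26e-05, adjusted p = 0.237). Unstimulated lists held 54313 to 175991 peaks in diabetic and 54408 to 169361 in control mice, with medians of 105751 and 132443, and the part of list length in this difference was not tested.

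**Figure D3:**
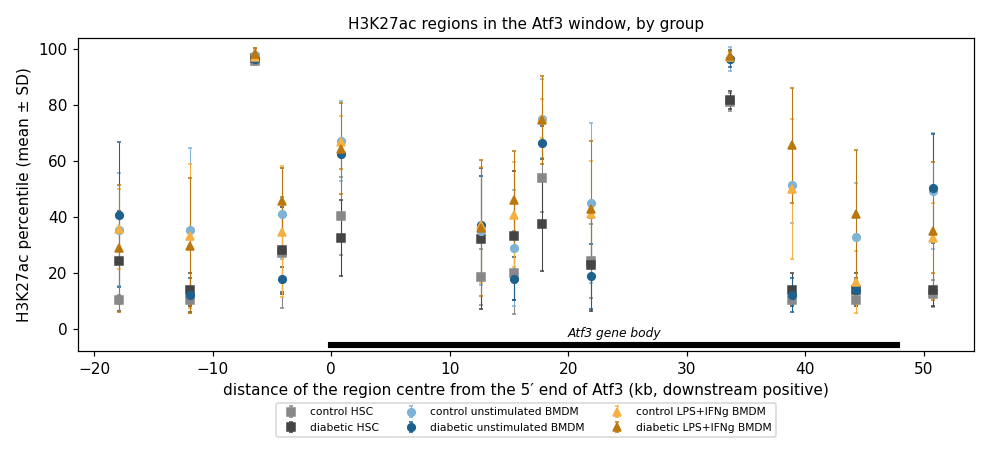
Mean percentile with SD of each H3K27ac region in the Atf3 window, by group, against the distance of the region's centre from the 5′ end of Atf3 in kb, with a black bar for the gene body. The promoter region, which lies over a start site inside the gene body, is near 96 in BMDM and 81 in HSC, and the intronic region is at 65.6 in stimulated and 11.9 in unstimulated diabetic BMDM.

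Batf, a short leucine zipper protein without an activation domain that works with Jun proteins and IRF4 or IRF8, had one of the weakest promoters of the family. Its ranks were 9734 to 11538.5 (median 10323) in control HSC, 9709.5 to 11719 in diabetic HSC and 10320 to 13851 (median 11340) in unstimulated control BMDM. Unstimulated diabetic BMDM were at 11674, 10754.5, 17475, 10867 and 12919, where the list with rank 17475, replicate 4, held no Batf promoter peak. After LPS+IFN-γ the diabetic libraries were at 8896, 6408, 3596.5, 8116, 11658 and 10639.5, so 5 of 6 lay above all unstimulated ones. Batf rose by 0.56 (SE 0.143, adjusted p = 0.0239). The call was lost with peaks ranked by fold (adjusted p = 0.0933), by permutation (0.261), in a fit of the 2 groups alone (0.131) and with a replicate block in that fit (0.226). It was also lost without stimulated libraries 2 and 3 (0.0559 and 0.107) and without unstimulated library 4 (0.109). In control BMDM stimulated ranks were 4848 to 11173 (median 10346), a difference of 0.26 (adjusted p = 0.919), or 0.31 without the odd libraries (adjusted p = 0.489). The 2 effects differed by 0.31 (SE 0.198, unadjusted p = 0.127, adjusted p = 0.819).

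Both Batf regions that were called with LPS+IFN-γ lay before or at its start. The promoter region, chr12:85686075-85687868, went from 50.9 ± 18.7 (n = 5) to 76.7 ± 12.6 (n = 6) in diabetic BMDM, a rise of 0.77 (SE 0.207, adjusted p = 0.0213). It was lost without stimulated library 3 (0.0829), without unstimulated library 4 (0.103), with peaks ranked by fold (0.0527) and with a replicate block (0.112). Control BMDM went from 54.2 ± 11.9 to 70.0 ± 11.2 (n = 6 each) at this promoter region, which was not called. The 2 stimulation effects on it differed by 0.32 (unadjusted p = 0.266, adjusted p = 0.866). The upstream region, chr12:85665396-85667595 and centred at -20174 bp, was listed in 0 of 5 unstimulated diabetic and 5 of 6 stimulated diabetic libraries and rose by 1.10 (SE 0.313, adjusted p = 0.0299), from 11.9 ± 6.04 to 46.1 ± 18.5. That call was lost without stimulated libraries 2, 3 and 5 (adjusted p = 0.0608, 0.0872 and 0.0542) and without unstimulated libraries 1, 2 and 6 (0.0503, 0.0771 and 0.0656). A replicate block also ended it (adjusted p = 0.0907). In control BMDM the upstream region differed by 0.56 (adjusted p = 0.817), and by 1.17 without the odd libraries, which passed (adjusted p = 0.0289). The difference between the 2 stimulation effects there was 0.54 (adjusted p = 0.841), or −0.07 without the odd libraries (adjusted p = 0.996).

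Batf3, the close relative of Batf, ranked 8720 to 12435 (median 10696.5) in control HSC and 9257 to 17201.5 (median 10323.5) in diabetic HSC, where replicate 6 held no promoter peak. Unstimulated BMDM were higher, at 5842.5 to 9341 (median 7547) in control and 9746, 5899, 4424.5, 7482.5 and 6710.5 in diabetic libraries. The rise was 0.55 in diabetic mice (SE 0.141, adjusted p = 0.00620), with 4 of 5 BMDM above all HSC libraries. In control mice the difference was 0.37 (SE 0.135, adjusted p = 0.0522), with 5 of 6 above. It passed in a fit of the 2 groups alone (adjusted p = 0.0123), by permutation (0.0455), without unstimulated library 1 (0.0371) and without HSC library 4 (0.0408). The effects differed by 0.17 (unadjusted p = 0.387). LPS+IFN-γ gave differences of 0.18 and 0.04 (adjusted p = 0.965 and 0.904). Downstream, the region chr1:191109548-191110901 was listed in 11 of 11 unstimulated BMDM and 5 of 12 HSC libraries and rose by 1.25 (adjusted p = 9.46e-05) in control and 1.12 (adjusted p = 0.000848) in diabetic mice. In an Nsl1 intron, chr1:191077699-191078622 was listed in 5 of 5 unstimulated diabetic BMDM and 0 of 6 diabetic HSC and rose by 1.35 (SE 0.258, adjusted p = 0.000103). In control mice it was listed in 5 of 6 unstimulated BMDM and 2 of 6 HSC libraries and was not called. The BMDM minus HSC effects on this region differed by 0.78 between the mice (unadjusted p = 0.0323), which did not pass after adjustment. Batf3 and Atf3 are neighbours on chromosome 1, which places their windows side by side.

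Counted over the 66 H3K27ac regions of the 10 windows, BMDM and HSC differed at 21 in control mice (18 higher and 3 lower in BMDM), beside 31.3% of all 44611 regions. In diabetic mice 18 were called (15 higher, 3 lower), beside 26.6%. The shares of the window regions were thus near those of the genome, while the median difference was 0.204 and 0.160 against 0.0137 and 0.0115 over all regions. With LPS+IFN-γ, 6 were called in diabetic BMDM (4 higher, 2 lower), beside 4.68% of all regions, and 0 in control BMDM, beside 0%, by limma (7 window regions and 2808 of all at an unadjusted p under 0.05). Without the odd libraries 2 were called in control BMDM, the upstream Batf region and the Fosl2 region, both from the set of regions whose score picked those libraries. Disease comparisons called 0 window regions and 0% of all regions in each of the 3 cell states, with 1, 10 and 2 window regions and 1158, 2715 and 1929 of all at an unadjusted p under 0.05. The tests of the difference between the mice, added after the region values had been seen, called 0% of regions for stimulation (3157 at an unadjusted p under 0.05) and 0% for BMDM minus HSC (1492). Windows of Fosb, Fosl1, Junb, Jund, Atf3 and Batf3 also hold other protein-coding genes, so a region there is not assigned to the member. The promoter regions of Fos, Fosb and Fosl1 and the Junb region at -2979 bp were outside the 5 with the largest differences of their comparisons and were named after their values were seen.

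**Figure D4:**
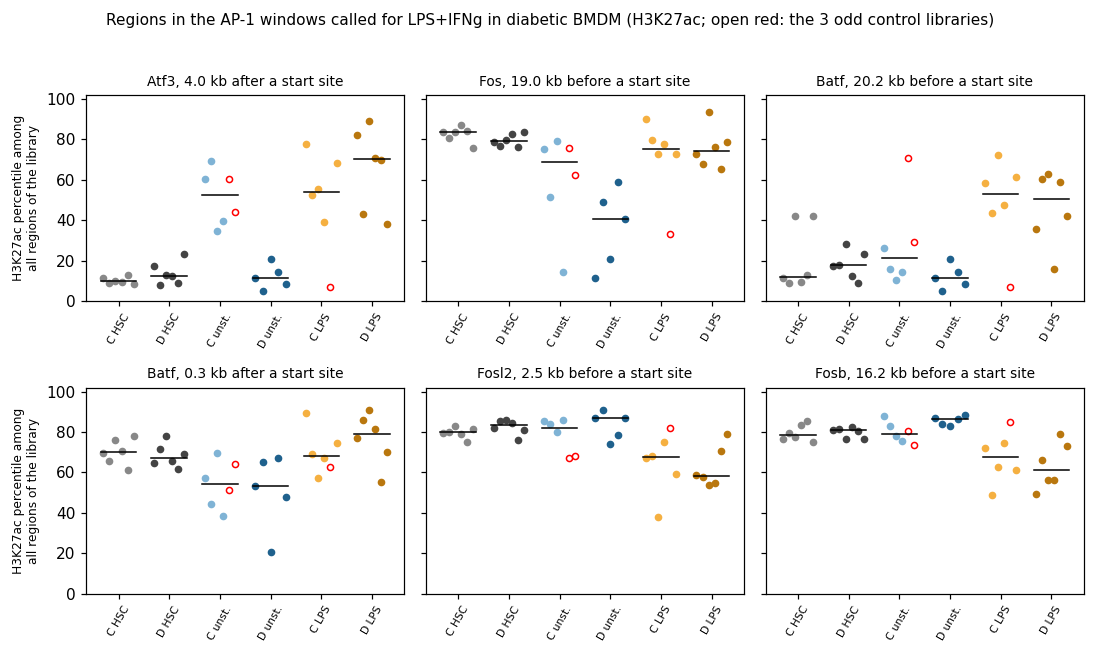
Percentile of the 6 H3K27ac regions called with LPS+IFN-γ in diabetic BMDM, by library and group, with black lines at group medians and open red points for the odd libraries. The Atf3 intron is unlisted in all 5 unstimulated diabetic libraries and all 12 HSC libraries, and the Fosb and Fosl2 regions drop in stimulated libraries.

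Diabetic and control libraries overlapped in the H3K27ac ranks of every member in every comparison. How many of all promoters overlapped was not counted, so this cannot be read as a trait of the members. Differences between diabetic and control promoters ran from −0.0940 to 0.243 in HSC (lowest unadjusted p = 0.297), from −0.429 to 0.197 without stimulation (0.0655) and from −0.144 to 0.368 after it (0.150), with standard errors between 0.0926 and 0.285. The lowest value, −0.429, was Fos in unstimulated BMDM (adjusted p = 0.875), and it was −0.575 without the odd libraries (unadjusted p = 0.0256).

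H3K4me3 gave no call at any member promoter. Between BMDM and HSC 0 of 10 were called in control mice, beside 4.57% of all promoters, and 0 in diabetic mice, beside 0.18%, by limma. At an unadjusted p under 0.05 stood Fos and Fosb in control mice by limma and by permutation, and Fosb in diabetic mice by limma with Fosl1 added by permutation. With stimulation 0 of 10 and 0% were called in control and in diabetic BMDM (603 and 1185 promoters at an unadjusted p under 0.05 by limma, 626 and 1063 by permutation). The 3 disease comparisons also called 0 of 10 and 0% (779, 726 and 867 by limma, 815, 812 and 880 by permutation), as did the tests of the difference between the mice, 0% each (831 and 772). By disease the lowest unadjusted p of a member by limma was 0.0766 in HSC, 0.0325 without stimulation and 0.0704 after it. The lowest difference without stimulation was −0.685, at Fos (mean score 0.0562 in diabetic and 0.742 in control libraries). The largest value was Fos with LPS+IFN-γ in diabetic BMDM, 1.05 (SE 0.312, unadjusted p = 0.00149, adjusted p = 0.395). Its stimulated ranks were 128, 987.5, 363, 8373.5, 11617.5 and 10611.5, so replicates 1 to 3 lay near the top and the others with the unstimulated libraries at 7262 to 13023. The difference between the stimulation effects on Fos was 1.23 (unadjusted p = 0.00601, adjusted p = 0.983).

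**Figure D5:**
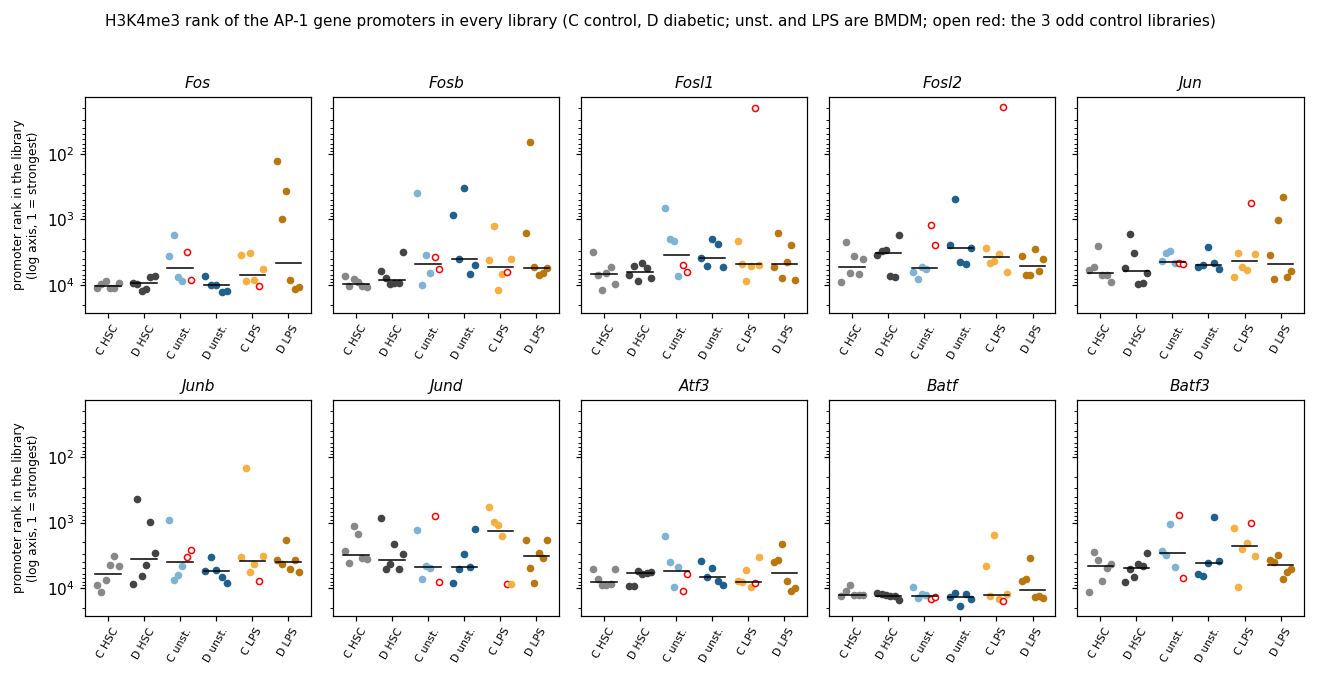
H3K4me3 rank of each AP-1 promoter (log axis, 1 is the strongest) by library and group, with black lines at group medians and open red points for the 3 odd libraries of H3K27ac, by label. Ranks spread widely within groups, and Fos in stimulated diabetic BMDM splits into 3 libraries from 128 to 987.5 and 3 from 8373.5 to 11617.5.

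Over the 55 H3K4me3 regions of the windows 1 was called between BMDM and HSC in control mice, beside 3.13% of all 44636, and 0 in diabetic mice, beside 0.672%. The called region lies in a Batf intron, chr12:85697996-85698738. It fell by 1.17 (SE 0.290, adjusted p = 0.0152), from 75.8 ± 5.76 in HSC to 34.5 ± 18.4 in unstimulated BMDM (n = 6 each). The call was lost without the H3K4me3 libraries labelled like the odd H3K27ac ones (adjusted p = 0.0821). Those H3K4me3 libraries were left out by label and not picked by a score of their own. Stimulation called 0 window regions and 0% of all in control and in diabetic BMDM. Disease called 0 window regions in each comparison, beside 0.00448% (2 regions) after LPS+IFN-γ and 0% in the other states, and the tests of the difference between the mice called 0%. Window regions at an unadjusted p under 0.05 by limma numbered 2, 7 and 4 for disease, 2 and 10 for stimulation and 11 and 14 for BMDM against HSC.

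Genes around AP-1 in the pathway were read from 3 lists. Of 19 relatives and partners of the basic leucine zipper class, 7 were called between BMDM and HSC in control mice (5 higher, 2 lower), where 14.7% of all promoters were called. Cebpb, which drives inflammatory genes in macrophages, rose by 0.81 (adjusted p = 0.0279). Maf rose by 0.76 and Mafk fell by 0.67 (adjusted p = 0.000607 and 0.0185). In diabetic mice, beside 14.3% of all promoters, 5 were called, among them Atf4, a stress factor, which rose by 0.95 (adjusted p = 0.0231). Of 21 upstream kinases and serum response partners 3 were called in each mouse group, a share near those of all promoters. Map3k8, the kinase that carries LPS signals to ERK, rose by 0.74 in control (adjusted p = 0.00339) and by 0.81 in diabetic mice.

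Among 15 other immediate early genes, 4 were called between BMDM and HSC in control mice, beside the 14.7% of all promoters. Egr1, a zinc finger factor, fell by 0.89 (SE 0.165, adjusted p = 0.000141), and Ier5, Klf4 and Nr4a1 rose by 0.97, 0.73 and 0.59. With LPS+IFN-γ in diabetic BMDM the orphan nuclear receptors Nr4a2 and Nr4a1 fell by 1.77 (adjusted p = 0.00218) and 1.02 (adjusted p = 0.00372). The kinase Map2k2 fell by 1.15 (adjusted p = 0.00426). None of the 19 leucine zipper relatives was called there, beside 2.37% of all promoters. In control BMDM 0 genes of the 3 lists were called by limma, beside 0% of all promoters.

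The members' scores varied in different directions across libraries. Among pairs of members over the 35 H3K27ac libraries, Pearson's r of the promoter scores was highest for Fos and Atf3 (0.63), followed by high values such as Fosb and Jund (0.58), and lowest for Fosb and Batf3 (−0.66). The gene most like each member outside the family was Marcks for Atf3 (r = 0.91), Lrrc36 for Batf3 (0.86), Vps11 for Batf (0.83), Ptger2 for Fos (0.82), Sptb for Fosb (0.81), Fam20c for Fosl2 (0.81), Siglec1 for Jun (0.79), Plxnd1 for Junb (0.74), Trpc5 for Fosl1 (0.73) and Ska1 for Jund (0.73). These values describe 35 libraries that share cell states and the same reference of genes, and the best of all tested genes was taken for each member.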

How the data were processed

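H3K27ac (abcam ab4729) and H3K4me3 (ab8580) ChIP-seq libraries were sequenced as 50 bp single reads. The submitters' processing notes name Trim Galore 0.3.3, cutadapt 1.8, FastQC 0.11.3, Bowtie2 2.2.6, Picard 2.19.2 and 2.18.14, bedtools 2.19.1, MACS2 2.2.7.1 and the builds GRCm38 and mm10. The authors deposited 1 list of peaks for each of 70 libraries, called separately against input. The deposited lists give a score, which is the −log10 q times 10 without its decimals, a fold enrichment, which is a ratio to local background, and the −log10 p and −log10 q of each summit. The deposited −log10 p (column 8) was used to rank within a library. The lists stop at the caller's threshold and hold no read totals, so counting intervals could not be given, and 36 input samples were not used here. In all, 9511856 summits formed 7828714 peaks.

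Promoters were scored by the best −log10 p of a peak within 1 kb of any start site of GENCODE M21, and genes without a peak shared the middle of the remaining ranks. Regions were merged from the top 20000 peaks of each list, kept when found in at least 2 lists, and scored alike. Genes held in at least 5 libraries were tested. Normal scores were fitted with limma 3.58.1 (R 4.3.3, trend and robust), 1 fit per mark over all groups, with Benjamini-Hochberg adjustment. A difference is the first group's mean score minus the second's. Exact permutation tests were two-sided, and the smallest p they allow is 0.0022 for 6 against 6 libraries and 0.0043 for 6 against 5. Tables were made with python 3.11.15, pandas 2.3.3 and numpy 2.4.6, and the tests were tested on simulated data.

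The labels number replicates without saying whether they came from separate cultures, so p-values measure the spread between libraries, which may in part be technical. No pair of lists was identical. Members and gene lists were chosen with earlier results of these data known. All 10 members are named, with called regions of their windows up to the 5 with the largest difference per comparison, called genes of other lists up to 4 per list and comparison, and the gene most like each member. The values of 1 called gene of these lists are not reported here. Alternatives were ranking by fold, other region seeds, filters, overlaps and promoter widths, fits of 2 groups with and without a replicate block, permutation, and leaving out libraries. Whether stimulated and unstimulated libraries with the same number share a mouse is not stated. In diabetic BMDM their H3K27ac deviations correlated at 0.04 to 0.35 (median 0.12), and 3 of 5 correlated best with their own number. In control BMDM the range was −0.19 to 0.26, with 3 of 6. The main fit did not take numbers as pairs, so a pairing is not excluded, and the replicate block shows how calls change with it.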

Additional observations from a re-analysis of the deposited data

Results flagged for a closer look

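Within groups of 5 or 6 libraries, 10 of 120 sets of member ranks held a library far from the rest, where the gap to its nearest neighbour took up most of the group's range. Chance alone gives about 1 in 20 such sets. For H3K27ac these were Fosb in unstimulated diabetic BMDM 2 (rank 6984.5, others 1725 to 2698.5), Fosb in control LPS+IFN-γ 5 (1416, others 5989 to 9422), Fosl1 in control HSC 5 (9298, others 7190.5 to 7931.5), Jun in control HSC 1 (5171.5, others 1779 to 2745), Batf in control LPS+IFN-γ 1 (4848, others 9694.5 to 11173) and Batf3 in diabetic HSC 6 (no peak, shared rank 17201.5, others 9257 to 10644.5). For H3K4me3 these were Fosl1 and Fosl2 in control LPS+IFN-γ 5 (ranks 20 and 19, others 2141.5 to 8660.5 and 2716 to 6256.5), Junb in control LPS+IFN-γ 2 (144, others 3204.5 to 7831) and Batf in diabetic HSC 6 (15442.5, others 12035.5 to 13321). Of the 10, 3 concern replicate 5 of control LPS+IFN-γ BMDM.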

How the results depend on the processing

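Of 642 counts of members or window regions recomputed under an alternative, 611 stayed within 1.5 times the count reported and 31 moved. For 23 called values of single promoters and regions, 371 recomputed ones kept their call, 40 lost it and 0 turned sign. Regions counted there were up to the 5 with the largest difference per comparison. The losses of the Fosl2 region, and of the upstream Fos region between BMDM and HSC in control mice, are outside that count. For promoters, the 1 call with LPS+IFN-γ in diabetic BMDM became 0 with peaks ranked by fold, in a fit of the 2 groups, with a replicate block in that fit (Batf adjusted p = 0.226) and by permutation, and 0 to 1 with a library left out. The 3 calls of BMDM against HSC became 1 by fold in control mice, and 1 to 4 (control) and 3 to 4 (diabetic) with a library left out. For regions, stimulation gave 2 calls in place of 0 in control BMDM without the odd libraries, and in diabetic BMDM 3 in place of 6 by fold, 3 with the replicate block (lost were the Batf promoter region, the upstream Batf region and the Fosl2 region, adjusted p = 0.112, 0.0907 and 0.0567) and 4 to 7 with a library left out. BMDM against HSC gave 11 in place of 21 by fold in control mice (16 to 22 with a library left out), and in diabetic mice 10 in place of 18 by fold and 10 from the top 10000 peaks (14 to 17). For H3K4me3 regions the 1 call in control mice became 6 from the top 40000 peaks, 4 in a fit of the 2 groups and 3 with the replicate block. It became 0 without the H3K4me3 libraries labelled like the odd ones, and 1 to 3 with a library left out. The 0 in diabetic mice became 3 in the fit of the 2 groups, 4 with the replicate block and 0 to 1 with a library left out. Every other count of BMDM, stimulation or disease calls was 0 to 0 with a library left out. Over all promoters the 403 calls of stimulated diabetic BMDM became 73 by fold, 101 in the fit of the 2 groups, 19 with the replicate block and 0 by permutation, and the 2087 regions became 1028 by fold and 711 with the replicate block. With 6 against 5 libraries, permutation reaches the threshold only where many promoters share its smallest p (0.0043), so its 0 says little about the calls. The cause of the other changes was not tested. With no read totals the depth of a list is unknown, and an unlisted region may lie just under the caller's threshold.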
